A study of Mus musculus with 12 samples.

Results

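Ribosome biogenesis and nucleolar genes encode the proteins that transcribe, cut, modify and assemble ribosomal RNA. A set of 46 of them was followed in mouse alveolar macrophages, which reside in the airspaces of the lung, on Illumina BeadArrays. Members were the genes whose platform symbol or alias was on the list. No measured value is part of that rule, but the list was drawn up with earlier results of these data known. Of the 46 genes, 41 had a probe and 33 had at least 1 probe that passed the detection filter, out of 6563 genes tested in all. The 5 members without a probe were Noc2l, Npm3, Polr1b, Utp20 and Wdr43. For 8 others (Bysl, Ddx56, Dkc1, Nop16, Rrp12, Rrp1b, Tsr1 and Wdr12) no probe passed, since each was detected on 0 to 2 of the 12 arrays. Every count below is over the 33 measured members.

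There were 4 groups of 3 arrays. Wild-type M0 and wild-type M2 cells came from control animals, and knockout M0 and knockout M2 cells from Lmp7 knockout animals. The gene for Lmp7 is Psmb8, and its product is beta5i, an inducible catalytic subunit of the immunoproteasome, which makes peptides for antigen presentation. All mice were C57Bl/6J, 8 to 12 weeks old and kept free of specific pathogens, and the cells were collected by bronchoalveolar lavage. M2 cells received interleukin-4 (IL-4, a cytokine that drives alternative activation) at 20 ng/ml for up to 24 h, while M0 cells were left unpolarized. No time is given for M0 cells, so an effect of IL-4 and one of time in culture cannot be told apart. The IL-4 response below is the change from M0 to M2 cells. The labels do not say whether arrays of a group came from separate animals, whether animals were pooled, or in which cells the gene was deleted. The p-values therefore measure only the spread between these arrays, which may be technical. Within each group the arrays are called a, b and c by column name.

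The nucleolus forms around the ribosomal RNA genes, which RNA polymerase I transcribes into a long precursor. Small nucleolar ribonucleoproteins (snoRNPs) guide methylation and pseudouridylation of this precursor. The small subunit processome and a series of large subunit assembly factors then fold and cut it and add the ribosomal proteins. Cells raise this machinery when they grow, and the transcription factor MYC is a well-known activator of many of its genes.

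On each array 25.5% to 34.2% of all probes were detected (detection p under 0.05), with the lowest shares on arrays a of knockout M2, knockout M0 and wild-type M0 cells. Between 23 and 32 of the 33 members were detected per array, and 22 members were detected on all 12 arrays. Against wild-type cells of the same polarization, Psmb8 was lower by at least 3.43-fold in M0 and by at least 3.32-fold in M2 knockout cells (adjusted p from limma = 1.83e-05 and 3.1e-05), and its probe was undetected on all knockout arrays. Of 12 alveolar macrophage markers on the platform 11 were measured, with Car4 not measured. Their summed normalized intensity was 18130 to 18510 in wild-type M0 and 23370 to 25260 in wild-type M2 cells. In knockout cells it was 17450 to 18350 in M0 and 23720 to 24280 in M2. This sum is weighted toward bright genes, and Chil3, the brightest in M2 cells, rose by 1.62 log2 units in wild-type cells. Chil3 read the same, 13.20, on arrays b and c of wild-type M2 and on every knockout M2 array (SD 0). Quantile normalization gives equal ranks equal values, so differences between these arrays cannot be read from Chil3. In both genotypes Chil3, Krt79 and Plet1 rose, while Siglecf, Marco and Adgre1 fell (adjusted p from limma under 0.05). Between genotypes Marco was lower in knockout cells, by -1.27 log2 units in M0 and -1.14 in M2 (adjusted p = 0.000354 and 0.000714). The other measured macrophage markers did not pass between genotypes. Summed neutrophil markers lay higher on every knockout array than on every wild-type array. Of 7 on the platform 3 were measured (S100a8, Camp and Cxcr2, but not S100a9, Ltf, Ngp or Retnlg), with sums of 261 to 298.5 in wild-type M0, 220.5 to 304 in wild-type M2, 399 to 506 in knockout M0 cells and 408 to 592 in their M2 counterparts. The 3 measured monocyte and interstitial macrophage markers of 5 (C1qa, C1qb and C1qc, but not Ccr2 or Cx3cr1) summed to 138 to 184, 137 to 157, 251 to 288 and 198 to 240 in the same order. Epithelial markers (Sftpc and Scgb1a1, 2 of 7) summed to 149 to 182.5 in wild-type M0 and to 99.1 to 139 in the other 3 groups. Of the T and NK cell markers 1 of 6 was measured (Klrb1c, 39.7 to 94.9 over all arrays), and no B cell, dendritic cell or erythroid marker was. The neutrophil markers did not move together. S100a8 changed from M0 to M2 by -1.03 log2 units in wild-type and -1.42 in knockout cells (adjusted p from limma = 0.00112 and 7.51e-05). Cxcr2 was higher in M2, at least 1.38-fold in wild-type and by 1.47 log2 units in knockout cells (adjusted p = 0.0148 and 0.00269). Between genotypes in M2 cells only Cxcr2 passed, at 1.86 log2 units (adjusted p = 0.00576), beside 0.16 for S100a8 and -0.22 for Camp. The part of these cell types in the values below was not tested.

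A large share of the 33 measured members was higher in M2 than in M0 cells in both genotypes, and none was lower past the threshold. Because the list was drawn up with earlier results of these data known, these shares are a description. Of 58 measured biogenesis factors outside the list, 6.9% rose in wild-type and 13.8% in knockout cells. In wild-type cells 13 of 33 members rose and 0 fell (39.4% higher), against 8.43% of all genes tested that rose and 7.62% that fell. In knockout cells 12 of 33 rose and 0 fell (36.4% higher), against 10.3% and 11.4% of all genes. Of the members called, Bop1, Nop56, Rrp9 and Wdr74 met the filter of 3 detected arrays only through M2 arrays, which favours upward calls. With detection at p under 0.01 required on all 12 arrays, 8 of 17 members rose in wild-type and 9 of 17 in knockout cells. The shares of all genes that rose were then 15.8% and 19.1%. At an unadjusted p under 0.05, 0 members were lower in wild-type and 1 in knockout cells (Npm1). Here and below, past the threshold means a p from limma's moderated test, adjusted by Benjamini-Hochberg over 6563 genes, under 0.05. The median change over the members was 0.42 log2 units in wild-type and 0.44 in knockout cells, beside 0.003 and 0.0036 for all genes. With members undetected in 1 group set to their bound, the member medians were 0.32 and 0.44. The change was above 0 for 30 of 33 members in wild-type and 31 of 33 in knockout cells. The wild-type arrays of the 2 polarizations did not overlap for 20 members, 19 of them higher in M2, while 17.3% of all genes separated upward and 16.8% downward. In knockout cells 17 members separated upward and 1 downward, against 17.8% and 18.6% of all genes. These are bulk samples, so fewer cells of a type and less RNA per cell cannot be told apart.

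Part of these calls was lost without single arrays or with another scaling between arrays. In wild-type cells 8 members were past the threshold without array a of M0, 7 without array c of M0, 8 without array a of M2 and 6 without array c of M2. The shares of all genes that rose were then 7.05%, 6.52%, 5.72% and 5.84%, beside 8.43% with every array. In knockout cells the count without any 1 array was 9 to 13, when 7.85% to 10.7% of all genes rose. Median scaling in place of quantile normalization left 6 members higher in each genotype, when 4.34% and 4.54% of all genes rose. Those 6 were Fbl, Gar1, Gnl3, Nop58, Rrs1 and Wdr74 in wild-type and Ftsj3, Gar1, Heatr1, Nop56, Nop58 and Rrs1 in knockout cells. Without the 3 arrays of lowest detected share, 11 members rose in wild-type and 12 in knockout cells, when 7.83% and 7.74% of all genes rose.

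**Figure D1:**
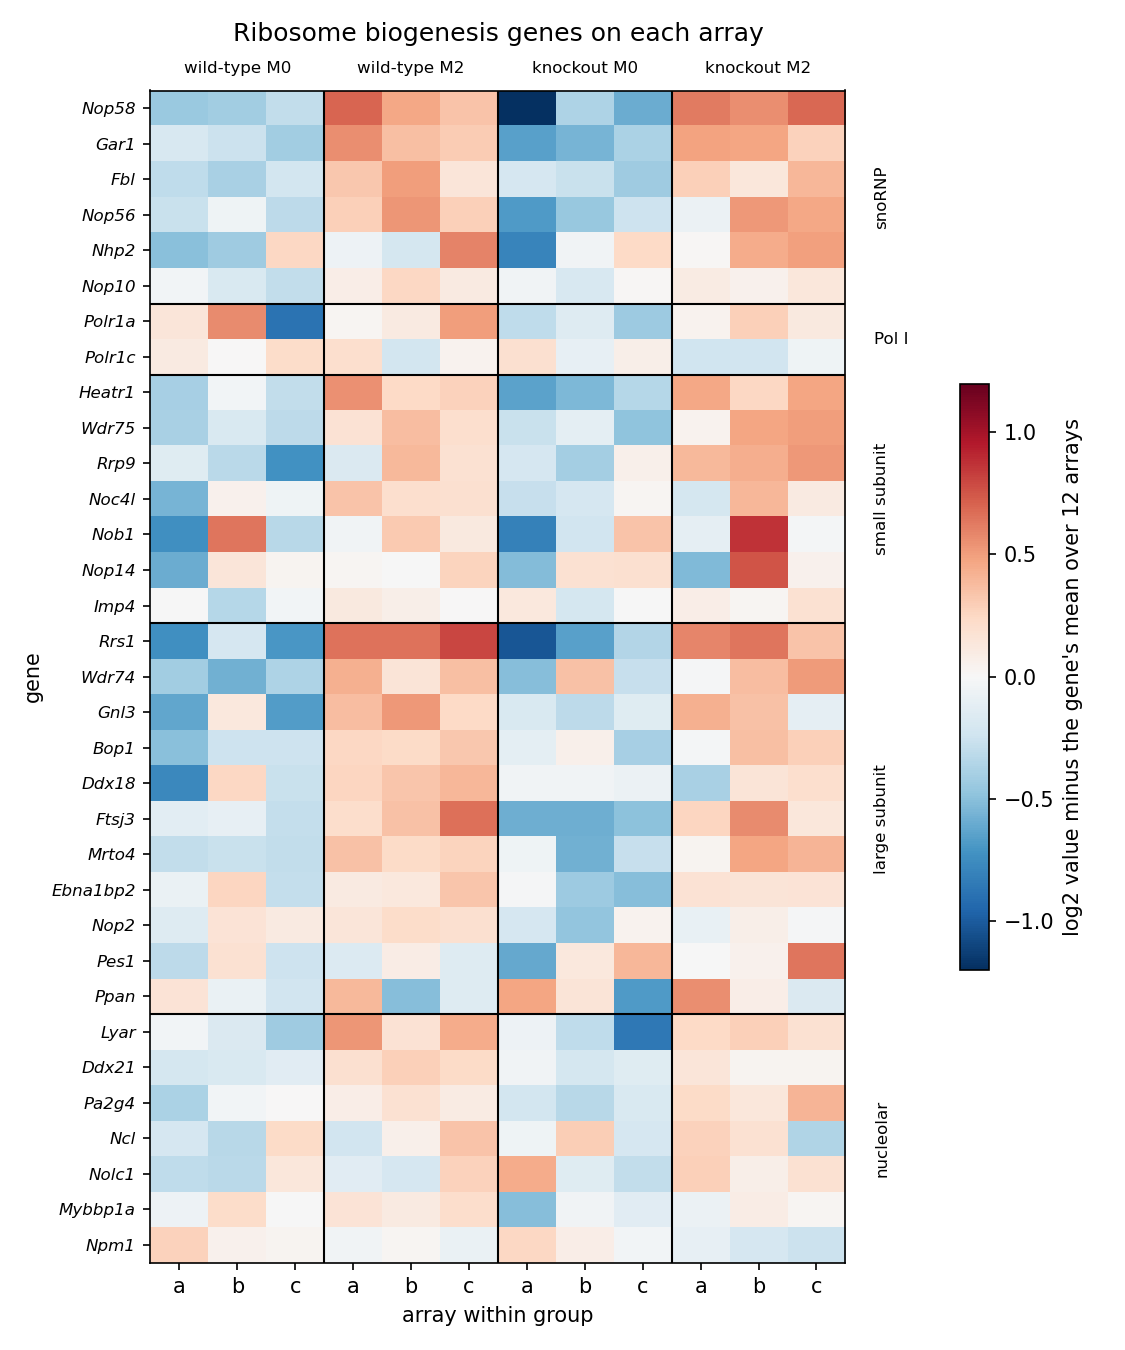
Level of the 33 measured members on each of the 12 arrays, as log2 value minus the gene's mean over all arrays (red higher, blue lower), in role groups ordered by the wild-type response. M2 arrays are mostly red and M0 arrays mostly blue for the upper genes of each role group, in both genotypes, while Polr1c and Npm1 show no such rise.

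The average over the 33 members, each expressed as its deviation from its own mean over the 12 arrays, was -0.19 ± 0.104 log2 units in wild-type M0 and 0.22 ± 0.033 in wild-type M2 cells (SD, n = 3). In knockout cells it was -0.23 ± 0.0486 in M0 and 0.20 ± 0.0819 in M2. Single arrays ran from -0.28 to -0.07 in wild-type M0, from 0.19 to 0.25 in wild-type M2, from -0.29 to -0.20 in knockout M0 cells and from 0.12 to 0.28 in their M2 counterparts. Every M2 array therefore lay above every M0 array, and the ranges of the genotypes overlapped within each polarization. The lowest M2 value came from array a of knockout M2 cells, the array with the lowest detected share.

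**Figure D2:**
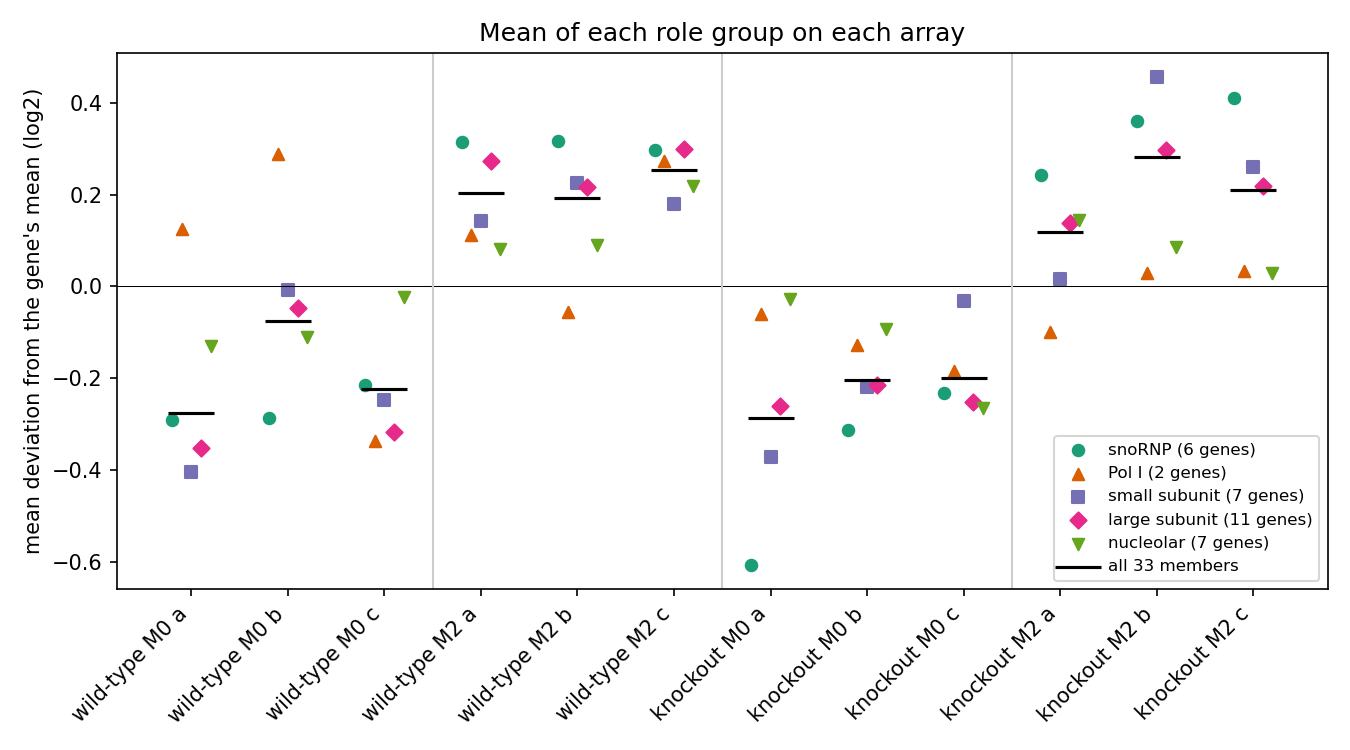
Mean deviation of each role group on each array (symbols, log2 units from each gene's mean over 12 arrays) and of all 33 members (black bars). The bars lie between -0.29 and -0.07 on the 6 M0 arrays and between 0.12 and 0.28 on the 6 M2 arrays, while the symbols of the 2 RNA polymerase I subunits show no such step.

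Promoter sequences were available for 29 of the 33 measured members, in the RefSeq annotation of GRCm38.p6, as windows of 300 bases from 250 before to 50 after a gene's start. Rrs1, Fbl, Npm1 and Bop1 had no window. Of the motifs searched on both strands 2 are reported, the E-box CACGTG, which MYC with its partner MAX is known to bind, and CCGGAAG, a core bound by ETS family factors. CACGTG was found in 4 of 29 member windows (13.8%), beside 10.6% of the windows of all tested genes and 7.15% of all windows in the table. CCGGAAG was in 9 of 29 (31.0%, beside 18.4% and 8.86%). G and C made up 59.6% of the bases in member windows, 60.3% in windows of tested genes and 53.8% in all windows. The part of base composition in the motif shares was not tested. CACGTG was in 0 of 13 windows of members that rose in either genotype and in 4 of 16 windows of members that passed in neither (Imp4, Nop2, Mybbp1a and Pes1). For CCGGAAG these were 3 of 13 (23.1%) and 6 of 16 (37.5%). Matches are descriptions of letters and not of binding. The windows of Nop2 alone among the measured members held both of these, without overlap. The 150 bases before the start are shown for 3 members that rose in both genotypes and for 2 with an E-box that did not pass, with motif matches in capitals. Nop58 (chr1:59684856-59685005, plus strand) held neither of them. Gar1 (chr3:129831397-129831546, minus strand) and Heatr1 (chr13:12395225-12395374, plus strand) held CCGGAAG, in Gar1 as its reverse complement. Nop2 (chr6:125131733-125131882, plus strand) held CACGTG starting 60 bases and CCGGAAG starting 38 bases before the start, and Imp4 (chr1:34439679-34439828, plus strand) held CACGTG starting 121 bases before it.
Nop58: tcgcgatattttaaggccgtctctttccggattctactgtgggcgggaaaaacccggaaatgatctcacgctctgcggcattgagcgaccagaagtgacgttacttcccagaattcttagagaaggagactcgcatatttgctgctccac
Gar1: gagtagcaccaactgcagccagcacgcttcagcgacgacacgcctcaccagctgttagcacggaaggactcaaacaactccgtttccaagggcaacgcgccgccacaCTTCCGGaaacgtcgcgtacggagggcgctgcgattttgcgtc
Heatr1: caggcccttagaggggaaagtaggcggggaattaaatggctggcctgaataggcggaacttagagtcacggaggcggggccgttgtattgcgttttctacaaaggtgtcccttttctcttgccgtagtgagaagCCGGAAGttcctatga
Nop2: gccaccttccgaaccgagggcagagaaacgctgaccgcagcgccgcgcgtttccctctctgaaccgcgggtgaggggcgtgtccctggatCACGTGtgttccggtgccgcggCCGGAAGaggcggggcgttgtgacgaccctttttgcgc
Imp4: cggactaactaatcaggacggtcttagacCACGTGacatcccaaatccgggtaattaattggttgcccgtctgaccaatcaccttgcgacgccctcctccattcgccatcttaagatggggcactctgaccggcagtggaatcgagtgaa

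Of 6 measured snoRNP proteins, 4 rose in each genotype, the same 4 genes (Nop58, Gar1, Fbl and Nop56), where 8.43% of all genes rose in wild-type and 10.3% in knockout cells. Nop10 and Nhp2 passed in neither. The median change over the 6 was 0.60 log2 units in wild-type and 0.67 in knockout cells (0.54 with Nop56 at its bound). From here on, ± after a difference is the standard error from the model over 12 arrays, and single values are normalized log2 intensities. Nop58, a core protein of the box C/D snoRNPs that guide methylation, read 7.16, 7.19 and 7.32 in wild-type M0 and 8.31, 8.08 and 7.95 in wild-type M2 cells. In knockout cells it read 6.35, 7.24 and 7.01 in M0 and 8.24, 8.16 and 8.30 in M2. All M2 arrays lay above all M0 arrays, and knockout M0 array a was the lowest of the 12. Nop58 rose by 0.89 ± 0.194 log2 units in wild-type (adjusted p from limma = 0.00995) and by 1.37 ± 0.194 in knockout cells (adjusted p = 0.000482).

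Gar1, a box H/ACA protein that acts in pseudouridylation, read 9.23, 9.17 and 9.01 in wild-type M0 and 9.98, 9.79 and 9.73 in wild-type M2 cells. The knockout arrays read 8.77, 8.86 and 9.04 in M0 and 9.91, 9.89 and 9.70 in M2. The M0 and M2 arrays did not overlap in either genotype, and Gar1 kept its call in every alternative run. It rose by 0.70 ± 0.118 log2 units in wild-type (adjusted p from limma = 0.00248) and by 0.94 ± 0.118 in knockout cells (adjusted p = 0.000223). Fbl encodes fibrillarin, the methyltransferase of the box C/D snoRNPs. It read 7.40, 7.32 and 7.49 in wild-type M0 against 8.03, 8.21 and 7.84 in wild-type M2 cells, and 7.50, 7.44 and 7.28 in knockout M0 against 7.99, 7.83 and 8.11 in knockout M2 cells. Again no M2 array reached down to an M0 array. Fbl rose by 0.63 ± 0.123 log2 units in wild-type (adjusted p from limma = 0.00562) and by 0.57 ± 0.123 in knockout cells (adjusted p = 0.00651).

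Nop56, the partner of Nop58 in the box C/D core, was dim. It read 5.83, 6.06 and 5.79 in wild-type M0, where 1 array detected it, and 6.39, 6.63 and 6.39 in wild-type M2 cells. Knockout values were 5.43, 5.65 and 5.85 in M0, undetected on all 3 arrays, and 6.04, 6.62 and 6.57 in M2, detected on 2. It rose by 0.58 ± 0.171 log2 units in wild-type cells (adjusted p from limma = 0.041), a call that was lost without any of 6 single arrays (5 of them wild-type, all but array b of M0, and knockout M0 array b; adjusted p up to 0.14). In knockout M2 cells it was at least 1.31-fold higher than in M0 (adjusted p = 0.00808). Nop10 and Nhp2, the other measured H/ACA proteins, did not pass. Nop10 changed by 0.31 ± 0.105 log2 units in wild-type and 0.17 ± 0.105 in knockout cells (adjusted p from limma = 0.0684 and 0.313), and its second probe gave 0.30 and 0.57. Nhp2, detected on 6 of the 12 arrays, varied from 5.26 to 6.65, with M0 and M2 arrays interleaved.

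**Figure D3:**
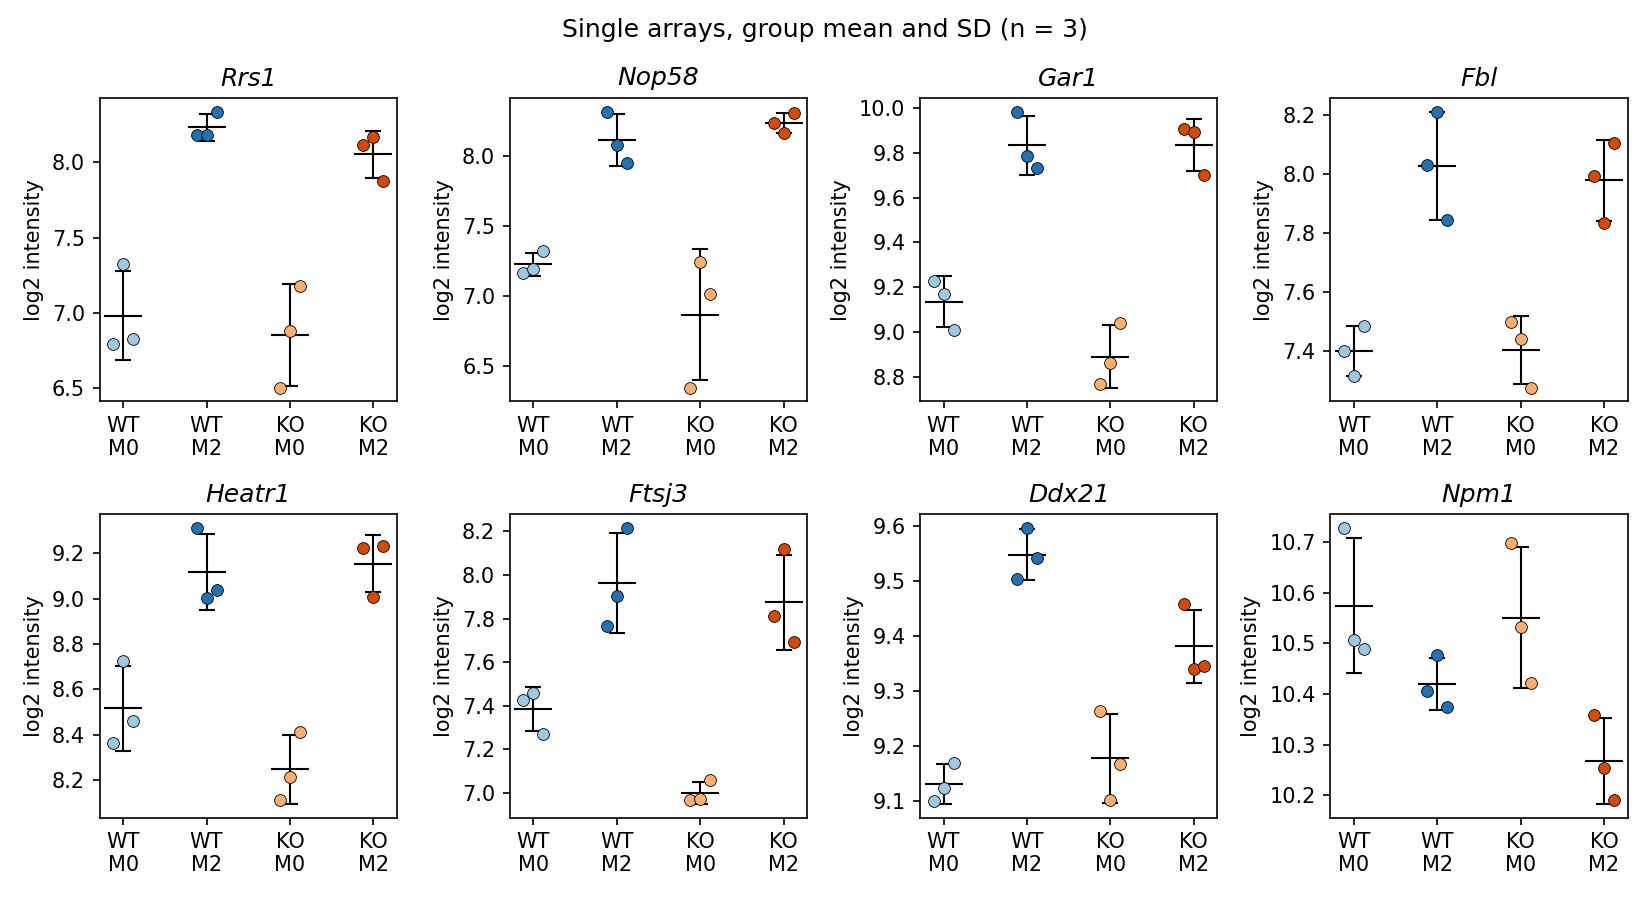
Normalized log2 intensity of 8 members on single arrays (points), with the group mean and SD (bars, n = 3 per group); the vertical axes start at different values. In Rrs1, Nop58, Gar1, Fbl, Heatr1, Ftsj3 and Ddx21 every M2 array lies above every M0 array of the same genotype, and in Npm1 every M2 array lies below.

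Among the 7 measured factors of small subunit assembly, 2 rose in wild-type (Heatr1 and Wdr75) and 3 in knockout cells (Heatr1, Rrp9 and Wdr75). All 7 had changes above 0 in both genotypes, with medians of 0.43 log2 units in wild-type (0.30 with Rrp9 at its bound) and 0.48 in knockout cells. Heatr1, known in yeast as Utp10 and part of the processome complex that also supports transcription by RNA polymerase I, read 8.36, 8.73 and 8.46 in wild-type M0 and 9.31, 9.002 and 9.04 in wild-type M2 cells. On the knockout arrays it read 8.11, 8.22 and 8.41 in M0 and 9.22, 9.01 and 9.23 in M2. The 6 M2 arrays lay above the 6 M0 arrays. Heatr1 rose by 0.60 ± 0.137 log2 units in wild-type (adjusted p from limma = 0.0126) and by 0.91 ± 0.137 in knockout cells (adjusted p = 0.000729). The wild-type call was lost without array a of wild-type M2 cells (0.51 log2 units, adjusted p = 0.0535). A second, dimmer probe of Heatr1 gave 0.39 and 0.97 log2 units.

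Wdr75, known in yeast as Utp17 and of the same processome complex, read 7.23, 7.43 and 7.30 in wild-type M0 and 7.79, 7.99 and 7.82 in wild-type M2 cells. Its knockout values were 7.35, 7.50 and 7.13 in M0 and 7.66, 8.09 and 8.12 in M2. The polarizations did not overlap in either genotype, though knockout M2 array a came close to the M0 arrays. The change was 0.55 ± 0.145 log2 units in wild-type (adjusted p from limma = 0.0258) and 0.63 ± 0.145 in knockout cells (adjusted p = 0.0099). Leaving out any of 5 wild-type arrays, all but array b of M0, ended the wild-type call (adjusted p 0.0546 to 0.096).

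Rrp9 is a protein of the snoRNP that directs the first cuts of the precursor. It was undetected on all wild-type M0 arrays, at 6.02, 5.83 and 5.43, and read 5.98, 6.54 and 6.35 in wild-type M2 cells. In knockout cells it read 5.96, 5.75 and 6.22 in M0, detected on 1 array, and 6.55, 6.60 and 6.68 in M2, detected on all 3. The knockout arrays separated and the wild-type arrays did not. Rrp9 rose by 0.63 ± 0.185 log2 units in knockout cells (adjusted p from limma = 0.0315), a call lost without any of 5 knockout arrays, all but array c of M0 (adjusted p 0.0592 to 0.115). In wild-type cells it was at least 1.23-fold higher in M2 and did not pass (adjusted p = 0.0781). Noc4l, Nob1, Nop14 and Imp4 passed in neither genotype, with changes of 0.19 to 0.43 log2 units in wild-type and 0.13 to 0.48 in knockout cells. Nob1, the endonuclease that makes the last cut of small subunit RNA, was detected on 5 of the 12 arrays and spread from 5.17 to 6.85.

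Of the 11 measured large subunit factors, 6 rose in wild-type (Rrs1, Wdr74, Gnl3, Bop1, Ftsj3 and Mrto4) and 3 in knockout cells (Rrs1, Ftsj3 and Mrto4). Their median change was 0.58 log2 units in wild-type (0.55 with members at their bounds) and 0.44 in knockout cells. Rrs1, which in yeast helps to bring the smallest ribosomal RNA into the early large subunit particle, read 6.80, 7.33 and 6.83 in wild-type M0 and 8.18, 8.18 and 8.33 in wild-type M2 cells. The knockout arrays read 6.51, 6.88 and 7.18 in M0 and 8.11, 8.17 and 7.88 in M2. The lowest M2 array, at 7.88, stood above the highest M0 array, at 7.33. Rrs1 had the largest wild-type change of any member, 1.25 ± 0.186 log2 units (adjusted p from limma = 0.00113), and rose by 1.20 ± 0.186 in knockout cells (adjusted p = 0.000859).

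Ftsj3, known in yeast as the ribosomal RNA methyltransferase Spb1, read 7.43, 7.46 and 7.27 in wild-type M0 and 7.77, 7.90 and 8.22 in wild-type M2 cells. Knockout values were 6.97, 6.97 and 7.06 in M0 and 7.81, 8.12 and 7.69 in M2. The M2 groups were alike, while the knockout M0 arrays lay below the wild-type M0 arrays. Ftsj3 rose by 0.58 ± 0.142 log2 units in wild-type (adjusted p from limma = 0.0179) and by 0.87 ± 0.142 in knockout cells (adjusted p = 0.00116). Without array c of wild-type M0 or array c of wild-type M2 the wild-type call was lost, at 0.45 to 0.52 log2 units (adjusted p 0.0642 to 0.0674).

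Mrto4, a nuclear relative of the stalk protein Rplp0 that holds its place on the early particle, read 7.33, 7.35 and 7.33 in wild-type M0 and 7.97, 7.85 and 7.88 in wild-type M2 cells. On the knockout arrays it read 7.57, 7.04 and 7.34 in M0 and 7.66, 8.09 and 8.02 in M2. The wild-type groups were tight and apart, while knockout arrays a lay close to each other. The change was 0.57 ± 0.148 log2 units in wild-type (adjusted p from limma = 0.0232) and 0.61 ± 0.148 in knockout cells (adjusted p = 0.0128). The wild-type call was lost without any 1 of the 6 wild-type arrays (adjusted p 0.0545 to 0.0781). The knockout call was lost when the knockout groups were fitted alone, without the replicate block (adjusted p = 0.0708) or with it on the authors' values (0.0623).

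Gnl3 encodes nucleostemin, a nucleolar GTPase. It read 6.83, 7.59 and 6.79 in wild-type M0 and 7.83, 7.98 and 7.70 in wild-type M2 cells, with array b of M0 close to the M2 arrays. Its knockout values were 7.28, 7.15 and 7.32 in M0 and 7.89, 7.81 and 7.35 in M2, with array c of M2 next to the M0 arrays. It rose by 0.77 ± 0.210 log2 units in wild-type cells (adjusted p from limma = 0.0286) and did not pass in knockout cells (0.44 ± 0.210, adjusted p = 0.175). The wild-type call was lost without any of 5 wild-type arrays, all but array b of M0 (adjusted p 0.0532 to 0.104).

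Wdr74 and Bop1 were undetected on every wild-type M0 array, so their wild-type folds are bounds. Wdr74, a repeat protein of the early large subunit particle, read 5.82, 5.65 and 5.87 in wild-type M0 and 6.66, 6.39 and 6.60 in wild-type M2 cells. In knockout cells it read 5.72, 6.58 and 5.96 in M0 and 6.22, 6.61 and 6.74 in M2. The wild-type groups were apart and the knockout groups overlapped through array b of M0. Wdr74 was at least 1.47-fold higher in wild-type M2 cells (adjusted p from limma = 0.027) and did not pass in knockout cells (0.44 ± 0.207 log2 units, adjusted p = 0.171). Leaving out any of 5 wild-type arrays, all but array b of M2, ended the call (adjusted p 0.0563 to 0.0898).

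Bop1 belongs with Pes1 and Wdr12 to a complex needed for large subunit maturation. It read 5.54, 5.79 and 5.79 in wild-type M0 against 6.29, 6.27 and 6.36 in wild-type M2 cells, and 5.92, 6.10 and 5.64 in knockout M0 against 6.02, 6.40 and 6.33 in knockout M2 cells. The wild-type arrays separated and the knockout arrays did not. It was at least 1.24-fold higher in wild-type M2 cells (adjusted p from limma = 0.0156), a call lost without array a of M0 or array c of M2 (adjusted p 0.0546 to 0.0548). In knockout cells its change of 0.36 ± 0.143 log2 units did not pass (adjusted p = 0.102). Pes1, its partner, was detected on 4 of the 12 arrays and changed by 0.05 ± 0.257 in wild-type and 0.26 ± 0.257 in knockout cells. Ebna1bp2, Nop2, Ddx18 and Ppan passed in neither genotype either, the nearest to the threshold being Ebna1bp2 in knockout cells (0.48 ± 0.160 log2 units, adjusted p = 0.0543). There it passed in 11 of 25 alternative settings, 3 of them with 1 array left out. The 11 include the authors' values, over all groups without a block (adjusted p = 0.0433) and within the knockout groups with the replicate block (0.0470). Ebna1bp2's second probe gave -0.16 and -0.06.

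Neither of the measured RNA polymerase I subunits passed the threshold. Polr1a, the largest catalytic subunit, read 7.56, 7.98 and 6.53 in wild-type M0 and 7.43, 7.52 and 7.91 in wild-type M2 cells, with the lowest and the highest of all 12 values in the same group. The knockout arrays read 7.10, 7.26 and 6.97 in M0 and 7.46, 7.70 and 7.53 in M2, groups that did not overlap. The changes were 0.27 ± 0.293 and 0.45 ± 0.293 log2 units (adjusted p from limma = 0.617 and 0.327). Its second probe gave 0.01 and 0.90, and with the mean of both kept probes Polr1a passed as higher in knockout cells (0.68 log2 units, adjusted p = 0.0242). Polr1c, a subunit shared by RNA polymerases I and III, changed by -0.10 ± 0.131 and -0.23 ± 0.131 (adjusted p = 0.682 and 0.266).

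Of the 7 measured nucleolar chaperones, helicases and growth-linked proteins, 1 rose in wild-type (Ddx21) and 2 in knockout cells (Lyar and Pa2g4). These shares, 14.3% and 28.6%, stand beside 8.43% and 10.3% of all genes, and the first rests on a single gene. Ddx21, an RNA helicase that acts in ribosomal RNA transcription and processing, read 9.10, 9.12 and 9.17 in wild-type M0 and 9.50, 9.60 and 9.54 in wild-type M2 cells. Knockout values were 9.26, 9.10 and 9.17 in M0 and 9.46, 9.34 and 9.35 in M2. The M2 arrays of both genotypes lay above the M0 arrays, the knockout ones below the wild-type ones. Ddx21 rose by 0.42 ± 0.0902 log2 units in wild-type cells (adjusted p from limma = 0.00946) and did not pass in knockout cells (0.20 ± 0.0902, adjusted p = 0.141).

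Lyar, a nucleolar zinc finger protein, read 7.01, 6.87 and 6.61 in wild-type M0 and 7.58, 7.21 and 7.48 in wild-type M2 cells. On the knockout arrays it read 6.98, 6.74 and 6.18 in M0 and 7.28, 7.33 and 7.22 in M2. Both genotypes separated upward. It rose by 0.64 ± 0.190 log2 units in knockout cells (adjusted p from limma = 0.0326) and narrowly missed in wild-type cells at 0.59 ± 0.190 (adjusted p = 0.0568). The knockout call was lost without any of 5 knockout arrays, all but array a of M0 (adjusted p 0.0563 to 0.102).

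Pa2g4, a growth-regulated nucleolar protein also named Ebp1, read 8.59, 8.93 and 8.97 in wild-type M0 and 9.04, 9.14 and 9.06 in wild-type M2 cells. Its knockout values were 8.74, 8.63 and 8.78 in M0 and 9.19, 9.09 and 9.37 in M2. The groups were apart in both genotypes. Pa2g4 rose by 0.50 ± 0.123 log2 units in knockout cells (adjusted p from limma = 0.0136) and changed by 0.25 ± 0.123 in wild-type cells (adjusted p = 0.206). Without array b of knockout M0 or array c of knockout M2 the knockout call was lost (adjusted p 0.0505 to 0.0548).

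Npm1 and Ncl encode nucleophosmin and nucleolin, abundant proteins of the nucleolus. Npm1 read 10.73, 10.51 and 10.49 in wild-type M0 and 10.41, 10.48 and 10.38 in wild-type M2 cells. The knockout arrays gave 10.70, 10.53 and 10.42 in M0 and 10.36, 10.25 and 10.19 in M2. Npm1 was the only member whose M2 arrays all lay below its M0 arrays, which they did in both genotypes. Its changes of -0.16 ± 0.110 and -0.28 ± 0.110 log2 units did not pass (adjusted p from limma = 0.401 and 0.0942). With the replicate block on the authors' values, the knockout change was -0.27, with an adjusted p of 0.0383 over all groups and 0.0758 within the knockout groups. Ncl changed by 0.16 ± 0.221 and 0.02 ± 0.221, and its second probe gave -0.04 and -0.10. Nolc1, a chaperone of snoRNPs, and Mybbp1a, a nucleolar Myb-binding protein, changed by 0.11 to 0.24 log2 units and passed in neither genotype. Npm1 has processed copies in the genome, and the probe sequences were not used here, so signal from such copies cannot be separated.

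Members that rose in wild-type cells mostly rose in knockout cells. Of the 13 wild-type calls 9 were also knockout calls (69.2%), which made up 75% of the 12 knockout calls. The 9 were Fbl, Ftsj3, Gar1, Heatr1, Mrto4, Nop56, Nop58, Rrs1 and Wdr75. Bop1, Ddx21, Gnl3 and Wdr74 passed in wild-type and not in knockout cells, Lyar, Pa2g4 and Rrp9 passed in knockout and not in wild-type cells, and 17 members passed in neither. For 32 of 33 members the change had the same sign in both genotypes. It was larger in knockout cells for 19 members and larger in wild-type cells for 14. Across the 33 members the paired changes correlated at r = 0.792 (Spearman's rho 0.697), a description over genes measured on the same 12 arrays. Shared calls, signs and correlation were not computed for all genes, so this agreement is not shown to be particular to the members.

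**Figure D4:**
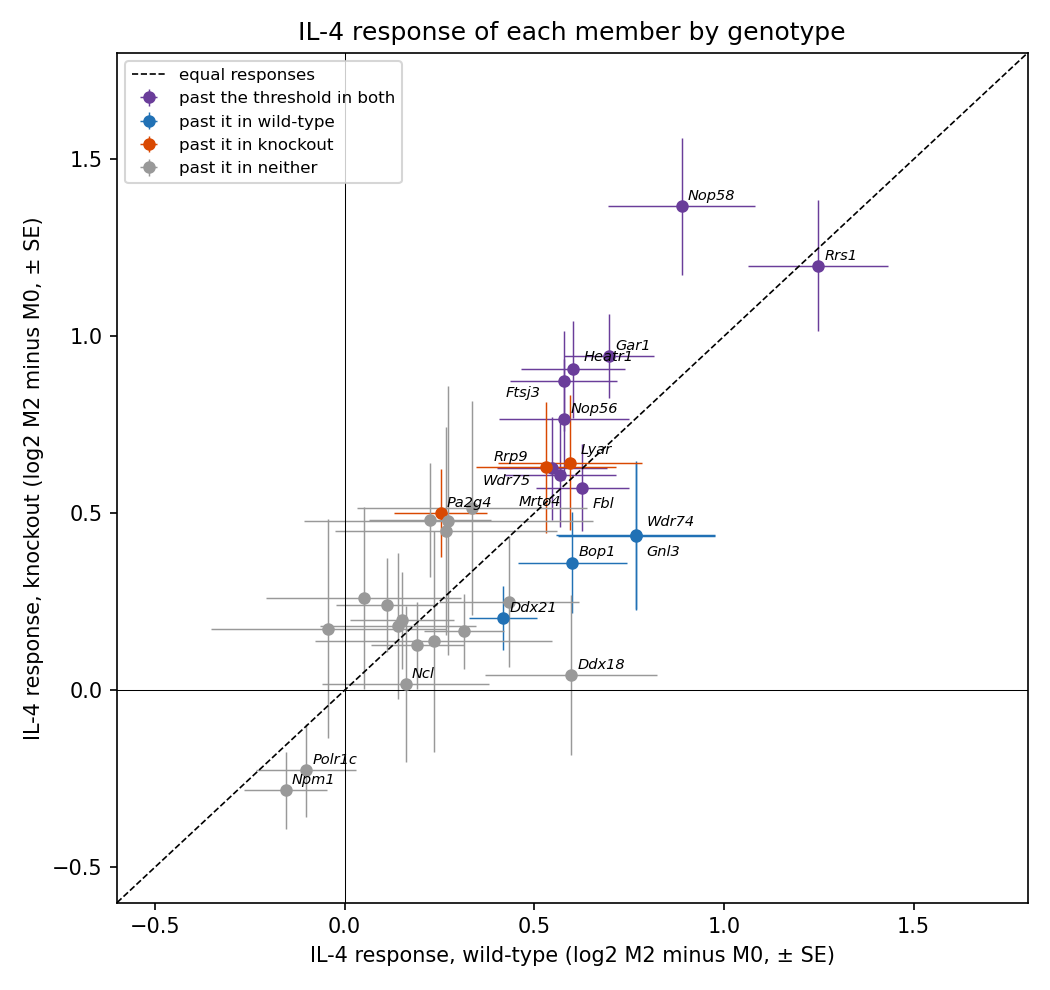
IL-4 response of each of the 33 members in wild-type (horizontal) and knockout cells (vertical), in log2 units with the standard error from the model; colours mark where a member was past the threshold and the dashed line marks equal responses. Nop58 lies farthest above the line, with 0.89 and 1.37, and Ddx18 farthest below it, with 0.60 and 0.04.

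The difference of the responses, knockout minus wild-type, was tested directly, and no member passed (0 of 33 by limma, against 0.107% of all genes, 0.0305% higher and 0.0762% lower; 0 members had an unadjusted p under 0.05). The 4 members called in wild-type cells and the 3 called in knockout cells are thus not shown to respond differently. The median difference was 0.05 log2 units, beside -0.0165 for all genes. The smallest p belonged to Nop58, whose response was larger in knockout cells by 0.48 ± 0.275 log2 units (95% interval -0.13 to 1.08, adjusted p from limma = 0.877). Ddx18, an RNA helicase of large subunit assembly, came next. It read 5.31, 6.33 and 5.82 in wild-type M0 and 6.35, 6.42 and 6.48 in wild-type M2 cells, then 6.04, 6.04 and 6.01 in knockout M0 cells and 5.70, 6.24 and 6.29 in their M2 counterparts. Its response was smaller in knockout cells by -0.55 ± 0.320 log2 units (95% interval -1.26 to 0.15, adjusted p = 0.879), with detection on 8 of the 12 arrays. For Ddx21 the difference was -0.21 ± 0.128 (95% interval -0.49 to 0.07, adjusted p = 0.896). Over the 33 members the 95% intervals of this difference reached from -1.26 to 1.39 log2 units. In simulated normalized values the same model and adjustment recovered 95.9% of genes whose responses differed by 2 log2 units. They recovered 51.5% of those that differed by 1 and 4.33% of those that differed by 0.5.

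No member passed the threshold between the genotypes. In M0 cells 0 of 33 members passed by limma, against 0.686% of all genes, and the median difference (knockout minus wild-type) was 0.004 log2 units, beside 6e-04 for all genes. The only member with an unadjusted p under 0.05 was Ftsj3, and it was also the only one whose arrays did not overlap, at -0.38 ± 0.142 log2 units (95% interval -0.70 to -0.07, adjusted p = 0.373). Of all genes, 7.39% separated in each direction. Mybbp1a came second. It read 9.37, 9.65 and 9.41 in wild-type M0 and 8.92, 9.38 and 9.29 in knockout M0 cells, and 9.59, 9.54 and 9.63 in wild-type M2 and 9.35, 9.51 and 9.44 in knockout M2 cells. The M0 groups overlapped, and the difference there was -0.28 ± 0.133 (95% interval -0.57 to 0.01, adjusted p from limma = 0.535). Gar1 followed at -0.24 ± 0.118 (95% interval -0.51 to 0.02, adjusted p = 0.55).

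In M2 cells again 0 of 33 members passed by limma, against 2.04% of all genes, and 0 had an unadjusted p under 0.05. The median difference was -0.03 log2 units, beside -0.0093 for all genes. Knockout arrays lay wholly below wild-type arrays for 6 members (Ddx18, Ddx21, Mybbp1a, Nop2, Npm1 and Rrs1) and wholly above for 1 (Rrp9), while 10.3% of all genes separated downward and 8.97% upward. Ddx21 differed by -0.17 ± 0.0902 log2 units (95% interval -0.36 to 0.03, adjusted p = 0.52), Rrp9 by 0.32 ± 0.185 (95% interval -0.09 to 0.72, adjusted p = 0.558) and Ddx18 by -0.34 ± 0.226 (95% interval -0.84 to 0.16, adjusted p = 0.628). None of these 3 differences exceeded its interval around 0. Neutrophil and C1q marker sums were higher in knockout than in wild-type cells in both polarizations. Of the single genes in these sums only Cxcr2 and C1qb passed, and the part of such cells in these genotype values was not tested.

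A further list of ribosome biogenesis factors outside the 46 members held 58 measured genes. Of these 4 rose in wild-type cells (Wdr46, Nip7, Rpf2 and Rsl1d1) and 8 in knockout cells (Wdr46, Mak16, Rpf2, Ddx27, Rrp8, Gtpbp4, Rsl1d1 and Emg1), and 0 fell in either by limma (at an unadjusted p under 0.05, 0 lower in wild-type and 0 in knockout cells). The shares of 6.9% and 13.8% stand beside the 8.43% and 10.3% of all genes that rose. The medians were 0.21 and 0.25 log2 units, and 45 of 58 changes were above 0 in each genotype. Wdr46, a scaffold of the small subunit processome, read 6.61, 6.92 and 7.11 in wild-type M0, 7.84, 7.89 and 7.80 in wild-type M2, 6.54, 6.83 and 6.97 in knockout M0 cells and 7.88, 7.64 and 7.69 in their M2 counterparts. Every M2 array stood above every M0 array, and the rises were 0.96 ± 0.148 and 0.95 ± 0.148 log2 units (adjusted p from limma = 0.00131 and 0.000859). Rpf2, which acts with Rrs1 in yeast, rose by 0.53 ± 0.133 in wild-type and by 0.69 ± 0.133 in knockout cells (adjusted p = 0.0206 and 0.00357), the former lost without any of 4 wild-type arrays (a and c of M0, a and b of M2; adjusted p up to 0.0761). Nip7, a pre-ribosome factor, rose by 0.70 ± 0.181 in wild-type cells (adjusted p = 0.0226, up to 0.0814 without array a of M0, b of M2 or c of M2) and changed by 0.54 ± 0.181 in knockout cells (adjusted p = 0.0561). Mak16 rose by 0.78 ± 0.193 in knockout cells (adjusted p = 0.0143, and 0.0593 without array c of knockout M0) and changed by -0.13 ± 0.193 in wild-type cells.

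**Figure D5:**
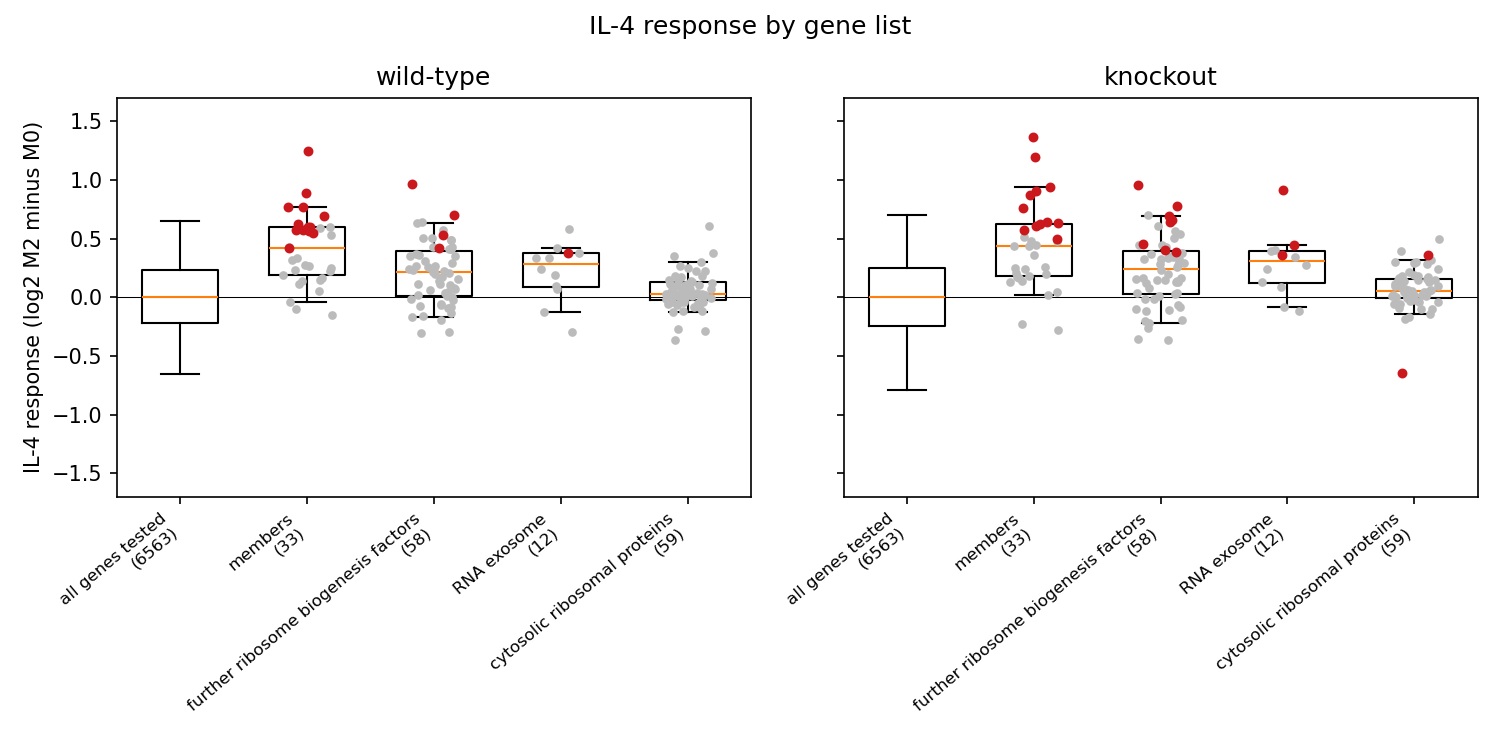
IL-4 response (log2 M2 minus M0) of all 6563 genes and of 4 gene lists in wild-type (left) and knockout cells (right); points are genes, red where past the threshold, boxes span the quartiles with the median, and whiskers span the 5th to 95th percentile. The members have medians of 0.42 and 0.44 and the cytosolic ribosomal protein genes medians of 0.03 and 0.06.

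Transcripts for the proteins of the ribosome itself moved little, and protein was not measured. Of 59 measured cytosolic ribosomal protein genes 0 passed in wild-type cells by limma (5 had an unadjusted p under 0.05), with a median change of 0.03 log2 units. In knockout cells 1 rose (Rps20, by 0.36 ± 0.0975, adjusted p from limma = 0.0225) and 1 fell (Rpl22, by -0.65 ± 0.187, adjusted p = 0.0291), with a median of 0.06. Rps20 lost its call without any of 4 knockout arrays (a and c of M0, a and b of M2; adjusted p up to 0.0838) and Rpl22 without any of 4 (b and c of M0, a and c of M2; adjusted p up to 0.101). Ribosomal protein genes have many processed copies, so their probes may collect signal from more than 1 locus.

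The RNA exosome, the nuclease complex that trims ribosomal RNA precursors, had 12 measured genes. Of these 8.33% rose in wild-type and 25% in knockout cells, beside 8.43% and 10.3% of all genes, and both shares rest on few genes. Exosc8 rose by 0.38 ± 0.106 log2 units in wild-type cells (adjusted p from limma = 0.0324), and Exosc6, Exosc8 and Exosc3 rose in knockout cells by 0.91 ± 0.235, 0.45 ± 0.106 and 0.36 ± 0.0947 (adjusted p = 0.0172, 0.0113 and 0.019). The wild-type call of Exosc8 was lost without any of 5 wild-type arrays, all but array a of M0 (adjusted p up to 0.107). The knockout call of Exosc6 was lost without arrays a of M0, a of M2 or c of M2, and that of Exosc3 without arrays a or b of M0 or a of M2 (adjusted p up to 0.0635 and 0.0597). Exosc9 was higher in knockout than in wild-type cells by 0.64 ± 0.118 log2 units in M0 and 0.54 ± 0.118 in M2 (adjusted p = 0.0362 and 0.0447). Both of its calls were lost without any single array other than knockout M0 array a (adjusted p up to 0.144 and 0.149). Of 9 other RNA polymerase I subunits and initiation factors, 0 passed in wild-type cells by limma (0 at an unadjusted p under 0.05) and 1 rose in knockout cells (Polr1e, by 0.59 ± 0.183, adjusted p = 0.0407). That knockout share, 11.1%, is near the 10.3% of all genes. Polr2k, a subunit shared by the nuclear RNA polymerases, was lower in knockout than in wild-type M2 cells by -0.60 ± 0.130 (adjusted p = 0.0447). Polr1e kept its call without 3 of the 12 single arrays (a and b of wild-type M0 and b of knockout M0) and Polr2k without 1 (b of knockout M0), with adjusted p up to 0.14 and 0.17 otherwise. Exosc9 and Polr2k fall outside the rule for named genes and were chosen after their values were seen.

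In the MYC network, 7 of 12 listed genes were measured. Myc itself was undetected in wild-type M0 cells, at 5.38, 5.72 and 5.67, and read 6.93, 7.31 and 7.18 in wild-type M2 cells. The knockout arrays read 5.68, 6.10 and 6.04 in M0 and 6.70, 7.54 and 7.18 in M2. All M2 arrays lay above all M0 arrays. Myc was at least 2.21-fold higher in wild-type M2 cells (adjusted p from limma = 0.000556) and rose by 1.20 ± 0.206 log2 units in knockout cells (adjusted p = 0.00171). Mxi1, a MAX partner that opposes MYC, fell by 0.80 ± 0.142 log2 units in wild-type cells (adjusted p = 0.00329) and by 0.78 ± 0.142 in knockout cells (adjusted p = 0.00242). The other 5 measured genes of the network passed in neither genotype.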

How the data were processed

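Levels were measured on 12 arrays, in 4 groups of 3. The first deposited table is, per the file headers, not normalized and holds an intensity and a detection p-value for each of 25697 probes and each array. They lay between -72 and 12659, all whole, which means that the authors had subtracted a background before deposit. A second deposited table, with replicate numbers, gives processed intensities of the authors (16 to 11275). The software and steps behind it are not given in the sources used here. Per the labels' protocols, RNA was extracted with a column kit and DNase, amplified over the whole transcriptome and labelled with biotin. In the first table a column shows its group but no replicate number.

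Background was modelled by normexp from the detection p-values (offset 16), and values were log2 transformed and quantile normalized, all with limma 3.58.1 in R 4.3.3. The platform annotation gave 23978 probes 1 gene symbol, 0 several and 1719 none. Named probes detected at p under 0.05 on 3 or more arrays were kept (8626), and the probe with the highest mean stood for its gene, which gave 6563 genes. A model with 4 group means and 8 residual degrees of freedom was fitted to all genes (lmFit, contrasts.fit, eBayes), and p-values of each of 5 contrasts were adjusted by Benjamini-Hochberg over all genes. Adjusted p-values in the text are limma's, two-sided. For a gene undetected on every array of 1 group, an "at least" fold sets the brighter group's mean against a dim mean, which takes on each array the gene's value or, if that is higher, the lowest level among detected probes. An NRF1 motif was also searched in the promoter windows, and was left out after its values were seen because its letters could not be printed, so the motifs reported are a part of those searched. The reported motifs were counted with Python 3.11.15 and plots drawn with matplotlib 3.10.9. The number of arrays limits the precision.

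In 10 simulations with 200 of 6563 genes changed, 20.6% of changes of 0.5 log2 units in an IL-4 response, 81.2% of changes of 1 and 99.8% of changes of 2 were recovered, with 4.8% false calls. In the data 1053 and 1422 genes passed in the wild-type and knockout IL-4 contrasts, and 7 in the difference of the responses. Recovery after Benjamini-Hochberg adjustment depends on how many genes change, so the simulated rates may not hold for these contrasts. The members and all gene lists were chosen with earlier results of these data known. Members given with every array were the 10 of largest change past the threshold in each IL-4 contrast and, between genotypes, the 3 of smallest p, and Pa2g4, Npm1 and Polr1a were added after their values were seen. From each further list up to 4 genes past the threshold were described, and the other genes past it, named without values, were added after their values were seen.

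Same-numbered arrays in the authors' table were checked for shared deviations from their group means. Their correlations were all above 0.1 between knockout M0 and M2 (0.363, 0.202 and 0.18) and between wild-type and knockout M0 cells (0.383, 0.249 and 0.116). The same held between wild-type M0 and knockout M2 cells (0.396, 0.309 and 0.138), which are not compared here. It did not hold between wild-type M0 and M2 (0.151, -0.00998 and 0.0698) or wild-type and knockout M2 cells (0.122, -0.0175 and 0.0549). The labels do not say that the numbers pair samples, and what the correlated arrays share was not tested. The main model holds no replicate block, and fits with a block are alternatives. Alternatives changed the scaling, background, filter, probe choice, table, replicate block, array weights, arrays and fitted groups.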

Additional observations from a re-analysis of the deposited data

How the results depend on the processing

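Of 25 alternative settings 24 were planned, and 1 (the replicate block within the groups compared) was chosen after seeing the data. No member passed between genotypes under any of the 25, or in the difference of the responses under the 23 that give one (a fit of only 2 groups does not), and no called member changed its sign. In wild-type cells the 13 members higher became 6 under median scaling and 8 when a detection p under 0.01 on all arrays was required, which left 17 members measured. Leaving out 1 array gave 6 to 14, when 5.65% to 8.55% of all genes rose. In knockout cells the 12 became 6 under median scaling, and Npm1 passed as the 1 lower member under the stricter filter and with the replicate block on the authors' values (adjusted p from limma = 0.0328 and 0.0383), but not with the block within the knockout groups (0.0758). With the block over all groups 15 members were higher in wild-type and 13 in knockout cells, when 10.1% and 12.1% of all genes rose. The block changed no other member count by more than 1.5 times. The member median in wild-type cells was 0.30 with no background model, 0.31 with the stricter filter, 0.34 on the authors' values with or without a block, and 0.37 to 0.56 without 1 array. In knockout cells it was 0.31 with an offset of 50, 0.30 with no background model and 0.31 on the authors' values with or without a block. Between genotypes the median in M2 cells was -0.10 under median scaling and -0.10 to 0.001 without 1 array, and in M0 cells -0.090 without the 3 arrays of lowest detected share. For the difference of the responses it was -0.028 under median scaling, where the median of all genes was -0.10, and 0.12 without those 3 arrays. The cause of these shifts was not tested, except that the stricter filter tests fewer members. Members near background (Nop56, Wdr74, Bop1, Rrp9, Nop2, Pes1, Nob1, Nhp2 and Ddx18) are limited by signal.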
